A study of Mus musculus with 12 samples.

Results

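The comparison set the 3 libraries of the line that overexpresses Kitl (Kitl_OE) against the 3 libraries of the line with a hairpin against Kitl (shKitl). These are the groups with the highest and the lowest Kitl transcript level in the series, and they were chosen by their labels. They are 6 of 12 libraries, and the other 6 are the controls of the same series, 3 with a control hairpin (shCtrl) and 3 carrying Egfp in place of Kitl (Egfp_OE). The study asked what KIT ligand made by pancreatic mesenchymal cells does within those cells, and it sequenced polyA-selected RNA of stable derivatives of ImPSC-1, a mouse pancreatic stellate cell line. All 4 groups carry the genotype label WT and grew in DMEM with serum and pyruvate.

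The 2 groups differ in more than Kitl. The shKitl and shCtrl cells share a hairpin vector, and the Kitl_OE and Egfp_OE cells share an overexpression design. A P number in the descriptions, whose meaning the labels do not give, was 13, 14 and 15 in shKitl, 14, 15 and 16 in shCtrl, 17, 18 and 19 in Egfp_OE and 18, 19 and 20 in Kitl_OE. Kitl, vector and P number therefore cannot be told apart within the comparison itself, and every gene was also placed against the range of all 6 control libraries. Each group is 1 line, the labels do not say whether a line is a clone or a pool, and the 3 libraries of a group were not stated to come from separately made lines. P-values thus measure only the spread between libraries, which may be technical.

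KIT ligand, also called stem cell factor, is a growth factor that mesenchymal cells make as a membrane-bound form, which proteases can shed into a soluble form. It binds the receptor tyrosine kinase KIT on mast cells, germ cells, melanocytes and blood progenitors, and KIT signals through PI3 kinase, Src-family kinases and the RAS-ERK cascade. Pancreatic stellate cells store retinoids at rest, and on activation they make collagen and contractile filaments of alpha smooth muscle actin and its partners.

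Counts in genes came to between 24979742 and 33517686 per library. Fibroblast genes marked the cells: Vim, Col1a1, Col1a2, Pdgfrb and S100a4 were abundant in all 12 libraries. Thy1, another fibroblast surface marker, lay between 34.5 and 93.3 CPM (counts scaled to a common library size) in 9 libraries and between 3.62 and 11.9 CPM in Kitl_OE. Ptprc of blood cells, Epcam of epithelium and Sox10 of glia were at 0 or near it in every library. In the first principal component of the 12 libraries, with 51.8% of the variance, Kitl_OE lay at 105 to 122 and the controls at -50.3 to -38.7. The shKitl libraries lay at -0.13, -22.9 and -46.8, so replicates 1 and 2 lay between the controls and Kitl_OE and replicate 3 among the controls.

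Kitl itself followed the labels. It lies on chromosome 10 (GRCm38, chr10:100015630-100100416, plus strand). Its level was 25.1, 25.5 and 30.3 CPM in shKitl, 73.5, 73.6 and 76.4 in shCtrl, 72.5, 31.8 and 72.3 in Egfp_OE and 125, 114 and 128 in Kitl_OE. The means were 27.0 ± 2.88 (SD, n = 3) in shKitl and 123 ± 7.32 (SD, n = 3) in Kitl_OE. The log2 difference of 2.18 (SE 0.26) between the extremes comprised 1.46 from shKitl to shCtrl, -0.34 from shCtrl to Egfp_OE and 1.06 from Egfp_OE to Kitl_OE. No control library overlapped either group, although Egfp_OE replicate 2 came close to the shKitl libraries. Since the groups were chosen as the extremes of Kitl, this is a description without a test. The receptor gene Kit had 2 counts in shKitl, 3 in shCtrl, 0 in Egfp_OE and 1 in Kitl_OE, which is at or under the floor of 3 counts a group, so the receptor transcript was not above that floor in any line at this depth.

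Of 15271 genes tested, 3161 differed between Kitl_OE and shKitl at an adjusted p under 0.05 (20.7%), with 1116 higher in Kitl_OE (7.31%) and 2045 lower (13.4%). The 3 libraries of each line did not overlap at 7369 genes (48.3%). Differences of at least 1 on the log2 scale accounted for 590 of the higher and 1572 of the lower genes. The lower side was thus longer and held more of the larger differences, while the median over all tested genes was -0.02. The count ranged from 1820 without Kitl_OE replicate 1 to 5360 without Egfp_OE replicate 2, and it was 1830 without Kitl_OE replicate 2. With libraries scaled by spike-in RNA the split was 245 higher and 1441 lower, and with the P number as a covariate, which assumes 1 slope for all groups, 685 genes passed, of which 610 were among the 3161 and had the same direction. There were 1581 genes that passed in all 12 fits that each left out 1 library, 439 higher and 1142 lower. Of the 157 genes past the test that the naming rule picked, 43 other than Kitl passed in every scaling, filter, tool and left-out library tried at the same threshold, 20 higher and 23 lower.

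Most of this difference lay between Kitl_OE and the other 3 lines. A line counted as outside the controls at a gene where all 3 of its libraries were above, or all 3 below, all 6 control libraries, and as inside otherwise. Kitl_OE lay above all 6 controls at 2935 tested genes (19.2%) and below at 2771 (18.1%), and shKitl lay above at 663 (4.34%) and below at 437 (2.86%). Among the 3161 genes that passed the test, 2244 (71.0%) had Kitl_OE outside the control range and shKitl inside it. Over all tested genes that share was 33.2%. The reverse, shKitl outside and Kitl_OE inside, was seen at 165 of the 3161 (5.22%), against 3.03% of all tested genes. Neither was outside at 544 of the 3161 (17.2%), against 9102 of all tested genes (59.6%). When the difference was cut into its steps from shKitl to shCtrl to Egfp_OE to Kitl_OE, the step from Egfp_OE to Kitl_OE was the largest for 2618 of the 3161 genes (82.8%). The step between the control lines, which differ in vector and P number, was the largest for 299 (9.46%), and the knockdown step for 244 (7.72%). Over all tested genes these shares were 55.1%, 27.8% and 17.1% in the same order. Each tested as its own contrast in the same fit, these steps had 5236 genes past the threshold (34.3%) from Egfp_OE to Kitl_OE and 191 (1.25%) between the controls. For the knockdown step from shKitl to shCtrl 0 genes passed in edgeR's test, where 2417 had an unadjusted p under 0.05, and DESeq2 called 439.

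**Figure D1:**
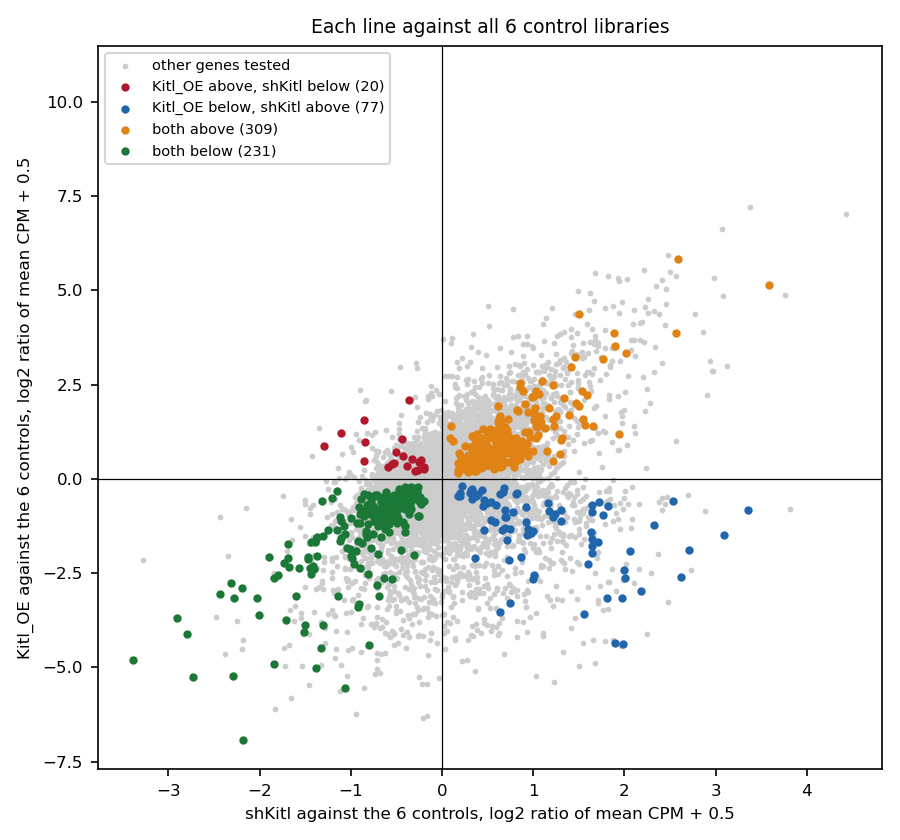
Each point is a gene tested, with the log2 ratio of mean CPM + 0.5 against the mean of the 6 controls for shKitl on the x axis and for Kitl_OE on the y axis. Coloured genes have all 3 libraries of both lines outside the range of the 6 controls: 20 with Kitl_OE above and shKitl below, 77 the other way round, 309 with both above and 231 with both below.

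Genes on opposite sides of all 6 controls were few. At 20 genes (0.131% of those tested) Kitl_OE lay above and shKitl below every control, as for Kitl, and all 20 passed the test. The class was formed from the same libraries that were tested and already sets them apart, so passing lends it no support. The other 19 were Tspan12, Rassf3, Nagk, Efnb1, Chfr, Pigk, Tcf19, Trp53bp2, Ubn1, Tmem183a, Evl, Vapb, Blcap, Pdlim7, Tmem234, Rnf11, Atp6v1c1, Adipor1 and Atp2b1, with log2 differences from 0.46 (Atp2b1) to 2.53 (Tspan12). Atp2b1 did not pass without Kitl_OE replicate 1 or 2 or without any 1 of the shKitl replicates. Tspan12, a tetraspanin that strengthens Norrin signalling through Frizzled-4, had 7.0, 6.93 and 4.86 CPM in shKitl and 40.4, 36.4 and 32.1 in Kitl_OE, with the 6 controls between 7.07 and 10.8 (SE 0.21, edgeR adjusted p = 1.53e-05). The highest shKitl library lay just under the lowest control, so most of the Tspan12 difference was on the overexpression side (2.28 from Egfp_OE to Kitl_OE and 0.51 from shKitl to shCtrl).

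Rassf3, a RAS-association domain protein, had 16.4, 11.2 and 12.2 CPM in shKitl, 32.7, 28.5 and 25.9 in shCtrl, 21.1, 18.6 and 19.8 in Egfp_OE and 68.7, 68.2 and 84.3 in Kitl_OE (log2 difference 2.47, SE 0.18, edgeR adjusted p = 9.11e-06). Both steps were present here, at 1.13 and 1.89, and the control lines differed by -0.55. Efnb1 encodes ephrin-B1, a membrane ligand of Eph receptors. It had 9.77, 8.90 and 8.67 CPM in shKitl, 16.6, 18.1 and 17.7 in shCtrl, 14.7, 14.6 and 19 in Egfp_OE and 30.9, 33.7 and 35.5 in Kitl_OE (log2 difference 1.87, SE 0.16, edgeR adjusted p = 1.82e-05). Its steps of 0.94 and 1.05 were of like size, with -0.12 between the controls. Nagk, which phosphorylates N-acetylglucosamine, differed by 2.37 (SE 0.34), and Chfr, a ubiquitin ligase of the mitotic checkpoint, by 1.53 (SE 0.17). Tspan12, Rassf3, Nagk, Efnb1 and Chfr kept an adjusted p under 0.05 without each library in turn, with the P number as a covariate and with every other scaling and tool tried. Their places outside the control range were narrower than that: with spike-in scaling 2 genes remained in the class, and none of the 20 lay at least 1.5-fold outside the controls on both sides. Leaving out a library loosened the rule, to 67 genes without shKitl replicate 1 and 75 without Egfp_OE replicate 2.

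**Figure D2:**
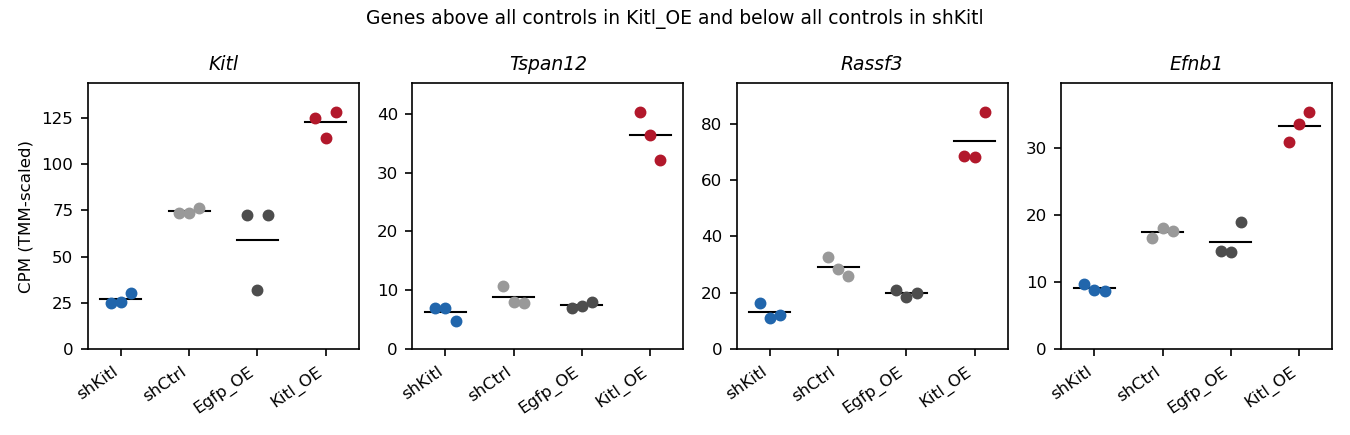
CPM in each of the 12 libraries (points, replicates 1 to 3 from left to right) and the group mean (bar) for Kitl, Tspan12, Rassf3 and Efnb1. In each panel the shKitl libraries lie under all 6 controls and the Kitl_OE libraries over them.

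On the opposite side were 77 genes (0.504%) with Kitl_OE below and shKitl above all 6 controls, all past the test, with a median log2 difference of -4.37. Here too the class itself sets the tested libraries apart, so passing lends it no support. The interferon-induced genes among them were Gbp4, Gbp6, Gbp7, Oas1g, Oasl1, Cmpk2, Rsad2, Ddx60, Trim14, Trim25, Parp14 and Sp140, together with Myd88 of the Toll-like receptor pathway and the antigen-presentation genes Nlrc5 and Erap1. Others were the cornified-envelope genes Sprr1b, Sprr2a3 and Sprr2b, the lipid kinase gene Pip5k1b, the cadherin gene Cdh11, the mineralocorticoid receptor gene Nr3c2 and the sterol exporter gene Abcg1. Apart from Gbp4, Gbp6, Oas1g, Cmpk2, Rsad2, Ddx60, Trim14, Pip5k1b, Sprr2a3 and Sprr2b these were picked out after their values were seen. The class numbered 186 without shKitl replicate 1, 121 without shCtrl replicate 1 and 152 without Egfp_OE replicate 2. The Gbp, Oas1 and Sprr2 genes have near-identical copies, so the split of reads among them is uncertain.

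Pip5k1b, which makes phosphatidylinositol 4,5-bisphosphate, was even within groups: 8.85, 11.0 and 10.1 CPM in shKitl, 4.37 to 7.93 in the controls and 0.0389, 0.0733 and 0.137 in Kitl_OE (log2 difference -6.81, SE 0.35, edgeR adjusted p = 2.18e-06). Cdh11, the cadherin of mesenchymal cells, had 161, 255 and 185 CPM in shKitl, 74.1 to 124 in the controls and 11.8, 15.2 and 19.2 in Kitl_OE (log2 difference -3.70, SE 0.27, edgeR adjusted p = 9.11e-06). Neither gene overlapped between groups, and in both the larger part of the difference was from Egfp_OE to Kitl_OE (-5.78 for Pip5k1b and -2.68 for Cdh11). Cnnm1, a membrane protein related to magnesium transporters, had 664 counts in shKitl and 2 in Kitl_OE, a ratio of 332 with an exact 95% interval of counting error from 91.5 to 2746. There were 9 genes that stayed in the class with library totals, spike-in totals and TPM and lay at least 1.5-fold outside: Sp140, Gbp4, Nr3c2, Ralyl, Vmn1r43, Sprr1b, Sprr2a3, Sprr2b and Sprr2j-ps. In Kitl_OE Sp140 had 1.25, 0.989 and 1.13 CPM and the others 0 to 0.205. Their place 1.5-fold under the controls thus rests on few counts. Vmn1r43 was low in shKitl too, at 0.533, 0.584 and 0.448 CPM.

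Many interferon-stimulated promoters hold the interferon-stimulated response element (ISRE). The stretch just before the start of 4 interferon-induced genes of the opposite-side class follows, from RefSeq's table for GRCm38.p6, each 5′ to 3′ on the gene's own strand and ending at the base before the start. Capitals mark the ISRE core (GAAA, any 2 bases, GAAA) on either strand, with overlapping matches joined.
Rsad2 (chr12:26456453-26456602, minus strand): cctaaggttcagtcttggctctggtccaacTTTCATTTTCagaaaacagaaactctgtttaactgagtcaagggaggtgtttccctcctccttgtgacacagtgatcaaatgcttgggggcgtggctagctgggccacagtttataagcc
Gbp7 (chr3:142530186-142530335, plus strand): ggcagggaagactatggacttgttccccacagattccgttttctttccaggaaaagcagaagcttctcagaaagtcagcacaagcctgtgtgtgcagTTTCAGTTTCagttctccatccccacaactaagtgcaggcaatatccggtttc
Ddx60 (chr8:61927937-61928086, plus strand): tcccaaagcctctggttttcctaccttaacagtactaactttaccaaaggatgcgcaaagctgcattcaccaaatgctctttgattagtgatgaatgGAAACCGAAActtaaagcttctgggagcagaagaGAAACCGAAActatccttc
Oas1g (chr5:120887614-120887763, minus strand): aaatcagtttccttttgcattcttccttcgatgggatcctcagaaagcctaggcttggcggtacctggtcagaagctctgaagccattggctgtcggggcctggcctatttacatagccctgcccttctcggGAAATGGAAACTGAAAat
The stretches of Rsad2 and Gbp7 held 1 match each, those of Ddx60 and Oas1g 2 each. Over the 250 bases before the start, 15 of the 31 interferon-list genes that had a promoter in the table held the core (48.4%), against 347 of 10842 tested genes with one (3.20%). Among the 46 such genes with Kitl_OE below and shKitl above the controls, 5 held it (10.9%). A match describes the letters and shows no binding.

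Among the lists with at least 10 tested genes the interferon response had the greatest share that passed: of 45 tested, 38 were lower in Kitl_OE and 1, Ifi27, was higher, and the list's median was -3.73 against -0.02 for all genes. Rsad2, the antiviral enzyme viperin, had 157, 221 and 263 CPM in shKitl, 86.3, 23.4 and 8.18 in shCtrl, 51.1, 147 and 6.81 in Egfp_OE and 1.91, 2.89 and 1.54 in Kitl_OE (log2 difference -6.66, SE 1.15, edgeR adjusted p = 0.00203). Its controls scattered over most of the distance between the extremes in both control lines. Its neighbour Cmpk2, a mitochondrial nucleotide kinase, had 79.7, 110.4 and 179.9 CPM in shKitl, 5.30 to 64.4 in the controls and 0.856, 1.58 and 0.990 in Kitl_OE (-6.75, SE 1.04). The transcription factor gene Irf7, which drives the response, differed by -5.05 (SE 1.39), and there the controls covered both groups: Irf7 had 79.3, 754 and 19.6 CPM in Egfp_OE, against 290.1, 481 and 246 in shKitl and 7.39, 17.2 and 6.01 in Kitl_OE. Irf7 did not pass without any 1 of the Kitl_OE replicates or without shKitl replicate 2. Across the 45 genes Kitl_OE lay below all controls at 11 and shKitl above them at 14, with both at 6. Over all tested genes these shares were 18.1%, 4.34% and 0.504%. The summed level of the list was 8047, 10939 and 9993 CPM in shKitl, 5926, 1965 and 985.7 in shCtrl, 3964, 13556 and 1463 in Egfp_OE and 1377, 1945 and 1208 in Kitl_OE. Within Egfp_OE alone it thus ran from 1463 to 13556, and Egfp_OE replicate 2, which is high, also had the most spike-in RNA (1.35% of counts against 0.446% to 0.684% in the others). The list had 40 lower genes without Egfp_OE replicate 2 and 39 with spike-in scaling, against the 38 reported. The part of that library's interferon level or spike-in share in the result was not tested. With the P number as a covariate 0 of the 45 passed in edgeR's test and 0 had an unadjusted p under 0.05, and the count of lower genes fell to 21 without Kitl_OE replicate 1, 22 without Kitl_OE replicate 3 and 25 with shKitl replicate 3 alone. Ifi27 did not pass without any 1 of the Kitl_OE replicates, shCtrl replicate 2 or shKitl replicate 1 or 2.

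Antigen presentation went with it: 15 of 19 genes passed, all of them lower in Kitl_OE (median -2.74). They comprised the class I heavy chains H2-K1, H2-D1, H2-T23 and H2-Q genes, the transporters Tap1 and Tap2, the immunoproteasome subunits Psmb8, Psmb9 and Psmb10, and Nlrc5, the activator of class I genes. H2-K1 had 365, 989 and 345 CPM in shKitl, 245, 93.8 and 55.1 in shCtrl, 88.0, 822 and 53.2 in Egfp_OE and 6.73, 9.78 and 10.2 in Kitl_OE (log2 difference -5.99, SE 1.09, edgeR adjusted p = 0.00274). Kitl_OE lay under every control, while Egfp_OE replicate 2 was as high as the shKitl libraries. Reads of the H2-Q genes may be split among copies. The count fell to 9 without any 1 of the Kitl_OE replicates, to 7 with shKitl replicate 3 alone and to 0 in edgeR's test with the P number as a covariate, where 0 of the 19 had an unadjusted p under 0.05.

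Chemokines and cytokines had 12 of 25 genes lower and 1 higher (median -2.33). Il1rl1, the receptor of interleukin 33, was the firmest: 41.8, 81.2 and 88.2 CPM in shKitl, 67.3 to 247 in the controls and 2.33, 2.02 and 2.36 in Kitl_OE (log2 difference -4.97, SE 0.36, edgeR adjusted p = 8.69e-06). Kitl_OE was far under every control, and 2 of the shKitl libraries lay among the controls with replicate 1 under them. The neutrophil chemokine gene Cxcl5 differed by -5.53 (SE 0.73), Il33 by -4.82 (SE 0.81) and the monocyte chemokine gene Ccl8 by -5.14 (SE 1.01). These 3 did not pass with the P number as a covariate, where 2 genes of the list were lower. Cxcl12, which retains CXCR4-bearing cells, was the member that was higher, with 535, 644 and 214 CPM in shKitl and 1234, 1159.9 and 1096 in Kitl_OE (1.32, SE 0.38, edgeR adjusted p = 0.0289), and it no longer passed without Kitl_OE replicate 1, Kitl_OE replicate 2 or shKitl replicate 3. Il6, a cytokine of inflammatory fibroblasts, did not pass (-0.86, SE 0.54, edgeR adjusted p = 0.297).

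**Figure D3:**
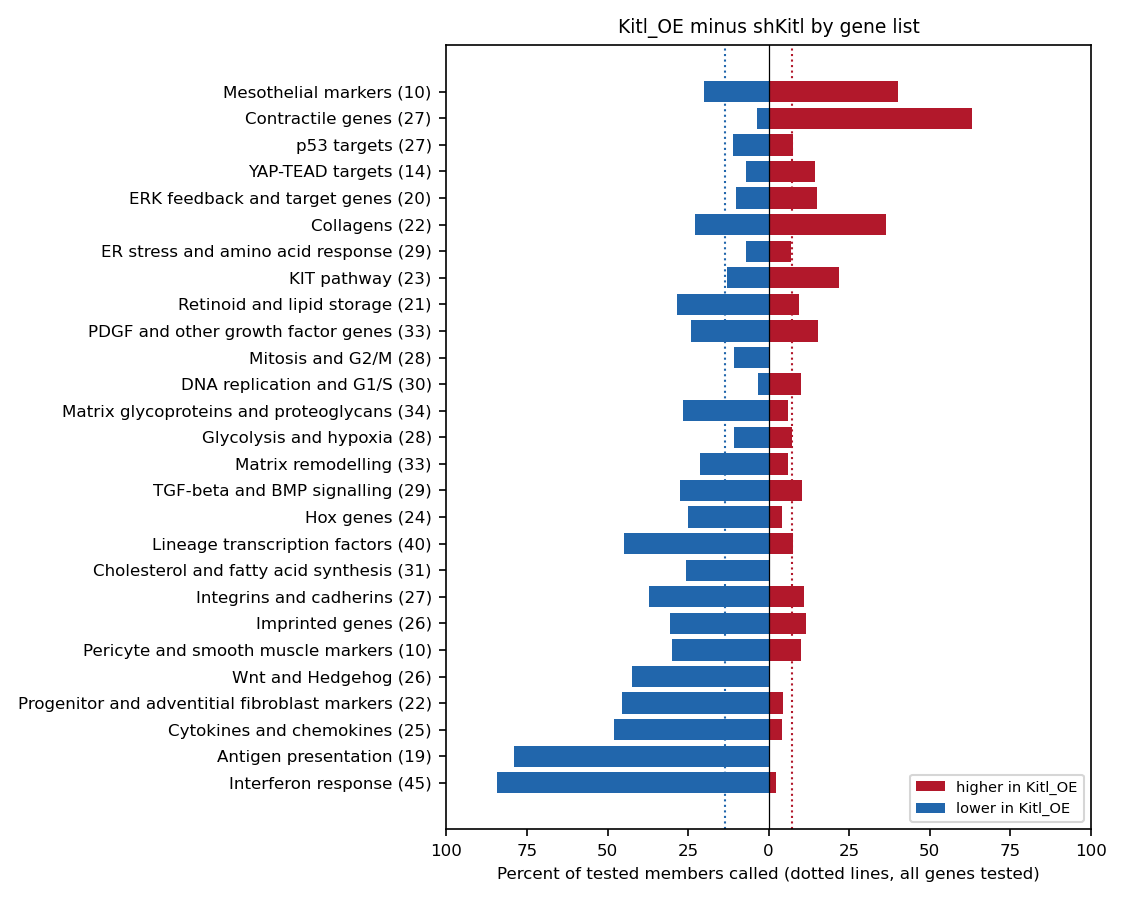
Percent of tested members called higher (right) or lower (left) in Kitl_OE against shKitl for the 27 lists with at least 10 tested genes, ordered by median log2 difference, with the number tested in brackets. Dotted lines are the shares over all genes tested, 7.31% higher and 13.4% lower, and the interferon and antigen lists reach farthest left and the contractile genes farthest right.

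Contractile genes were the list with the largest share higher in Kitl_OE: 17 of 27, with 1 lower (median 1.07). Cnn1, the actin-binding calponin of smooth muscle, had 11.1, 1.97 and 2.43 CPM in shKitl, 1.11 to 18.7 in the controls and 49.5, 36.6 and 88.5 in Kitl_OE (log2 difference 3.49, SE 0.74, edgeR adjusted p = 0.00642). Actg2, the gamma smooth muscle actin, had 215, 61.9 and 22.9 CPM in shKitl, 22 to 90.4 in the controls and 968, 766 and 1302 in Kitl_OE (3.34, SE 0.74, edgeR adjusted p = 0.00842). In both genes the Kitl_OE libraries were above all others, and the shKitl libraries lay among the controls except replicate 1 for Actg2, which was above them. Acta2, the alpha smooth muscle actin by which activated stellate cells are recognised, had 950.0, 230.4 and 94.4 CPM in shKitl, 530.4, 229.8 and 169 in shCtrl, 215, 138 and 89.6 in Egfp_OE and 2587, 1883 and 3825 in Kitl_OE (2.70, SE 0.75, edgeR adjusted p = 0.0248). The shKitl libraries spread from 94.4 to 950.0 CPM, with replicate 1 above all controls, and Acta2 did not pass without Kitl_OE replicate 1 or 3 or without shKitl replicate 2 or 3.

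The other higher members were Myh11, Lmod1, Myl9, Mylk, Tagln, Smtn, Tpm2, Csrp1, Mkl1, Myl6, Cald1, Cnn2, Srf and Pdlim7. Mkl1 encodes a coactivator of serum response factor, which Srf encodes. They differed by 1.5 (SE 0.29) and 0.75 (SE 0.17), and neither passed with spike-in scaling or with the P number as a covariate. Myocd, a related coactivator of the smooth muscle lineage, was the member that was lower, with 94 counts in shKitl and 1 in Kitl_OE, a ratio of 94.0 (exact 95% interval of counting error 16.5 to 3750). Myocd also differed between the control lines (-4.41). Of the 27 genes, Kitl_OE lay above all controls at 19, and shKitl lay outside them at 1, Pdlim7, which it was below. Over all tested genes these shares were 19.2% and 7.20%. The higher count was 12 to 21 over the fits that left out 1 library, 11 with spike-in scaling and 7 with the P number as a covariate.

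Serum response factor binds the CArG box, a CC and a GG around 6 A or T bases. The stretches before the starts of Myl9, the smooth muscle myosin light chain, and of Srf itself follow from the same RefSeq table (GRCm38.p6), with CArG boxes in capitals.
Myl9 (chr2:156775214-156775463, plus strand): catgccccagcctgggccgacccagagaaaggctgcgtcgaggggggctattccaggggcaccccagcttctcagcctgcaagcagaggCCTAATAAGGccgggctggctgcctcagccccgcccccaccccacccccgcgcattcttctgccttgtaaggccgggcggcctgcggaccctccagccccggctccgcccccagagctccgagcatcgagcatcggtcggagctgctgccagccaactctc
Srf (chr17:46556163-46556312, minus strand): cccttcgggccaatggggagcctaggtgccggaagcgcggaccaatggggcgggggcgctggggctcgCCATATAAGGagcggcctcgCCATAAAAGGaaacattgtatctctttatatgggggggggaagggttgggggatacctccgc
The box was present in 5 of the 21 contractile genes with a promoter in the table (23.8%: Cnn2, Myl6, Myl9, Srf and Vcl) and in 161 of 10842 tested genes (1.48%). Of these 5 genes all but Vcl were higher in Kitl_OE. Myl9 had 119, 52.0 and 18.8 CPM in shKitl, 25.5 to 84.3 in the controls and 369, 319 and 566 in Kitl_OE.

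**Figure D4:**
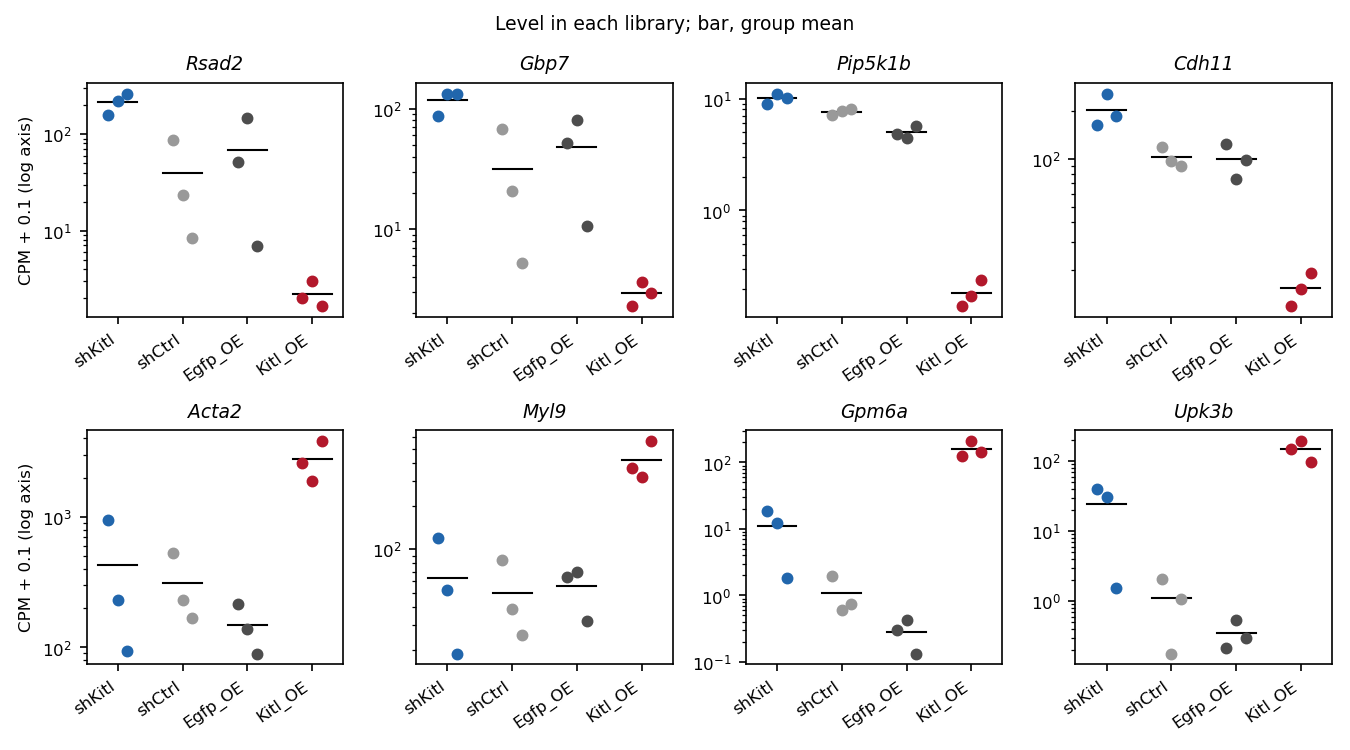
CPM + 0.1 on a log axis in each library (points, replicates 1 to 3 from left to right) with the group mean (bar), for 4 genes that were low in Kitl_OE (Rsad2, Gbp7, Pip5k1b and Cdh11) and 4 that were high (Acta2, Myl9, Gpm6a and Upk3b). The interferon genes Rsad2 and Gbp7 scatter within both control groups, Pip5k1b and Cdh11 do not, and shKitl replicates 1 and 2 lie over replicate 3 in the lower row.

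Collagen genes went both ways. Of 22 tested, 8 were higher in Kitl_OE and 5 lower (median 0.17), and 5 of the 8 higher genes were Col4a1 to Col4a5, which encode type IV chains of basement membrane. Col4a1 had 747, 534 and 387 CPM in shKitl, 156 to 688 in the controls and 2057, 1931 and 2233 in Kitl_OE (log2 difference 1.90, SE 0.40, edgeR adjusted p = 0.00625). Col4a6, another type IV chain, was lower (-1.54, SE 0.50), with an adjusted p of 0.0486 in edgeR's test that was lost without any 1 of the Kitl_OE replicates, of shKitl replicates 2 and 3, of Egfp_OE replicates 1 and 3 or of shCtrl replicate 2. Col1a1, the main fibrillar collagen chain, had 3136, 6562 and 1723 CPM in shKitl, 1702, 909 and 697 in shCtrl, 2174, 1916 and 1399 in Egfp_OE and 11528, 11002 and 9113 in Kitl_OE (1.47, SE 0.45, edgeR adjusted p = 0.0374). Kitl_OE was above every other library, and shKitl replicate 2 was the next highest. The result was lost without Kitl_OE replicate 1 or 2, without shKitl replicate 1 or 3, and with library totals. Its partner Col1a2 did not pass (0.16, SE 0.34), with both Kitl_OE and shKitl above all 6 controls. The count of 8 higher genes was 5 without Kitl_OE replicate 2, 4 without shKitl replicate 3 and 2 with spike-in scaling or the P number as a covariate. The count of 5 lower genes was 2 without any 1 of the Kitl_OE replicates or without shKitl replicate 2, and 3 without Egfp_OE replicate 1 or 3, shCtrl replicate 2 or shKitl replicate 3. The median was -0.04 with spike-in scaling and -0.01 without shKitl replicate 1.

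Of 34 matrix glycoproteins and proteoglycans 9 were lower in Kitl_OE and 2 higher (median -0.19). Thbs2, a matricellular inhibitor of angiogenesis, had 140.0, 377 and 129.9 CPM in shKitl, 86.2 to 366 in the controls and 3.27, 2.49 and 1.84 in Kitl_OE (log2 difference -6.41, SE 0.62, edgeR adjusted p = 4.58e-05). Fbln1, a fibulin of elastic fibres, had 55.3, 84.6 and 71.7 CPM in shKitl, 83.5 to 232 in the controls and 1.60, 1.5 and 0.888 in Kitl_OE (-5.73, SE 0.30, edgeR adjusted p = 2.18e-06). Spp1, osteopontin, had 627, 1069 and 908 CPM in shKitl, 770.0 to 2464 in the controls and 29.6, 59.2 and 39.7 in Kitl_OE (-4.34, SE 0.39, edgeR adjusted p = 2.92e-05). At all 3 genes Kitl_OE was far under every control. Of the shKitl libraries, replicate 2 at Thbs2 lay above the controls, and replicates 1 and 3 at Fbln1 and replicate 1 at Spp1 lay below. The 3 genes passed in every alternative that kept the threshold. Fbn2, a fibrillin, had 93 counts in shKitl and 1 in Kitl_OE, a ratio of 93.0 (exact 95% interval of counting error 16.3 to 3711). In matrix remodelling 7 of 33 genes were lower and 2 higher. Loxl1, which crosslinks elastin, had 132, 323 and 171 CPM in shKitl, 169 to 247 in the controls and 11.3, 18.2 and 20.5 in Kitl_OE (-3.65, SE 0.34, edgeR adjusted p = 3.20e-05). When the P number was a covariate 3 glycoprotein genes and 1 remodelling gene were lower, and with shKitl replicate 3 alone 8 glycoprotein genes were higher and 4 lower. The glycoprotein median turned to 0.27 and 0.32 with these settings and to 0.17 without shKitl replicate 2, and the remodelling median of -0.26 turned to 0.49, 0.33 and 0.01. Without Kitl_OE replicate 1 the lower counts were 5 and 3, and the remodelling count was 4 without Kitl_OE replicate 3 or shKitl replicate 2. The higher counts of 2 ranged from 0 without Kitl_OE replicate 2 or shKitl replicate 3 to 5 for glycoproteins without Egfp_OE replicate 2 or shKitl replicate 2.

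In the KIT pathway itself 5 of 23 tested genes were higher, Kitl among them, and 3 lower (median 0.13). Kitl_OE lay above all 6 controls at 12 of the 23, Kitl included, and below at 2. Over all tested genes these shares were 19.2% and 18.1%. The shKitl line lay above the controls at 4 of the 23 and below at 1, Kitl. Ptpn6 encodes the phosphatase SHP-1, which dampens KIT. It had 2.91, 2.12 and 1.98 CPM in shKitl, 0.551 to 1.51 in the controls and 10.1, 8.68 and 7.03 in Kitl_OE (log2 difference 1.88, SE 0.29, edgeR adjusted p = 0.00105), so both lines lay above all controls. Lyn and Fyn, kinases of the Src family, were higher by 1.00 (SE 0.21) and 0.54 (SE 0.15) and lay above the controls in shKitl too, apart from shKitl replicate 3 at Fyn. The PI3 kinase subunit genes went apart, with Pik3cd higher by 1.34 (SE 0.25) and Pik3r1 lower (-1.02, SE 0.26). The sheddase gene Adam17 was lower (-0.55, SE 0.17), as was Mmp9 (-3.55, SE 1.02), which can also release KIT ligand. Mmp9 was low, at 0.498, 2.15 and 0.486 CPM in shKitl and 0.0389, 0.183 and 0.0341 in Kitl_OE. All 3 lower genes depended on single libraries: Mmp9 did not pass without Kitl_OE replicate 1 or 3 or shKitl replicate 2, Pik3r1 without any 1 of the Kitl_OE replicates or shKitl replicate 2, and Adam17 without any 1 of the Kitl_OE replicates, shKitl replicate 2 or 3 or shCtrl replicate 2 or 3. Fyn did not pass without Kitl_OE replicate 1 or 2 or shKitl replicate 3. With the P number as a covariate or with spike-in scaling Lyn, Fyn, Pik3cd, Pik3r1 and Adam17 did not pass. Among 20 feedback and target genes of ERK signalling 3 were higher and 2 lower (median 0.19). Epha4, a receptor of ephrins, had 9.81, 5.76 and 1.68 CPM in shKitl, 1.40 to 5.00 in the controls and 29.7, 25.6 and 26.5 in Kitl_OE (2.24, SE 0.50, edgeR adjusted p = 0.00842), and Fosl1 (-1.41, SE 0.40) and the phosphatase gene Dusp5 (-1.04, SE 0.30) were lower and did not pass without Kitl_OE replicate 1 or 2 or without shKitl replicate 3. Without Egfp_OE replicate 2 the higher genes were 9 in the KIT list and 7 in the ERK list, and the ERK count was 5 without shKitl replicate 1 and 1 without Kitl_OE replicate 2. Spike-in scaling turned the KIT median to -0.10 and the ERK median to -0.05, and the P number as a covariate turned the latter to -0.01.

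Growth factor signalling genes went both ways. In the TGF-beta and BMP list 8 of 29 genes were lower and 3 higher (median -0.27), and in the list of PDGF and other growth factors 8 of 33 were lower and 5 higher (median -0.14). Tgfbr3, the coreceptor betaglycan, had 98.1, 194 and 162 CPM in shKitl, 116 to 179 in the controls and 25.6, 32.8 and 27.1 in Kitl_OE (log2 difference -2.41, SE 0.25, edgeR adjusted p = 6.67e-05). Bmp2 had 277 counts in shKitl and 1 in Kitl_OE, a ratio of 277 (exact 95% interval of counting error 49.3 to 10975). Eng, the TGF-beta coreceptor endoglin, was higher, with 139, 134 and 79.4 CPM in shKitl and 247, 239.9 and 234 in Kitl_OE (1.04, SE 0.20, edgeR adjusted p = 0.00389), and did not pass with spike-in scaling or with the P number as a covariate. Pdgfra, a receptor of fibroblasts, had 76.2, 187 and 50.1 CPM in shKitl, 32.2 to 221 in the controls and 12.1, 17.6 and 16 in Kitl_OE (-2.78, SE 0.51, edgeR adjusted p = 0.00285). Pdgfrb did not pass (0.16, SE 0.37, edgeR adjusted p = 0.812), and was -0.13 without shKitl replicate 3. In the Wnt and Hedgehog list 11 of 26 genes passed, all lower (median -1.11), among them the secreted Wnt antagonist genes Sfrp1 (-4.73, SE 0.68) and Sfrp2 (-5.03, SE 0.79), the Hedgehog antagonist gene Hhip (-4.93, SE 0.68) and the Hedgehog coreceptor gene Gas1 (-4.58, SE 0.64). With the P number as a covariate the TGF-beta list had 1 higher and 1 lower with a median of 0.27. The growth factor list then had 3 higher and 0 lower in edgeR's test (6 and 2 at an unadjusted p under 0.05) with a median of 0.35, and the Wnt and Hedgehog list had 1 of each. With shKitl replicate 3 alone the TGF-beta list had 8 higher and 4 lower (median 0.11) and the growth factor list 4 higher and 3 lower. The sign of both medians and the balance of calls thus turned with these settings. The lower TGF-beta count was 5 without Kitl_OE replicate 1 or 2, and its higher count was 1 without Kitl_OE replicate 2 and 8 without shKitl replicate 1. In the growth factor list the lower count was 3 without Kitl_OE replicate 1, 4 without Kitl_OE replicate 2 or 3 and 5 without shKitl replicate 1 or 2, and the higher count was 1 without Kitl_OE replicate 1 or 2 or shKitl replicate 3, 2 without shKitl replicate 2 and 3 without Kitl_OE replicate 3.

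Transcription factors that set the identity and position of mesenchyme had 18 of 40 tested genes lower and 3 higher (median -0.43), with 10 lower when the P number was a covariate. Msx1 had 6.57, 10.0 and 12.3 CPM in shKitl, 7.14, 10.6 and 10.8 in shCtrl, 2.72, 2.88 and 2.38 in Egfp_OE and 0.0778, 0.0733 and 0.137 in Kitl_OE (log2 difference -6.57, SE 0.40, edgeR adjusted p = 3.72e-06). Alx1 had 12.7, 23.1 and 25.2 CPM in shKitl, 12.5, 22.5 and 24.2 in shCtrl, 3.64, 3.49 and 1.54 in Egfp_OE and 0.117, 0.147 and 0.171 in Kitl_OE (-7.08, SE 0.52, edgeR adjusted p = 8.69e-06). In both genes the hairpin lines had overlapping levels, Egfp_OE was lower and Kitl_OE lower still, so part of the difference (-1.84 for Msx1 and -2.77 for Alx1) lay between the control lines. The T-box gene Tbx20 had the same order (-6.98, SE 0.64, with -2.29 between the controls). Gata6, Foxp2 and Prdm6 were the higher members, by 1.43, 1.5 and 2.63. Foxp2 and Prdm6 did not pass without any 1 of the Kitl_OE replicates or without shKitl replicate 3, and Prdm6 also not without shKitl replicate 2. Of 24 Hox genes 6 were lower and 1 higher (median -0.28). Hoxc4 had 6.65, 9.05 and 8.82 CPM in shKitl, 6.58 to 12.4 in the controls and 0.311, 0.476 and 0.444 in Kitl_OE (-4.30, SE 0.27, edgeR adjusted p = 3.72e-06), and Hoxd8 had 489 counts in shKitl and 3 in Kitl_OE, a ratio of 163 (exact 95% interval of counting error 55.4 to 793). Of the Hox genes 2 were lower with the P number as a covariate.

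Markers of fibroblast progenitors and of the adventitia had 10 of 22 tested genes lower and 1 higher (median -1.32), and 4 lower with the P number as a covariate. Cd34, a sialomucin of progenitor fibroblasts, had 52.1, 41.6 and 48.7 CPM in shKitl, 26.7 to 86.8 in the controls and 0.895, 0.769 and 0.683 in Kitl_OE (log2 difference -5.92, SE 0.31, edgeR adjusted p = 2.18e-06). Dlk1, an imprinted gene of a non-canonical Notch ligand, had 62.5, 75.2 and 74.6 CPM in shKitl, 161, 167 and 156 in shCtrl, 293, 492 and 668 in Egfp_OE and 2.10, 2.09 and 2.29 in Kitl_OE (-5.03, SE 0.29, edgeR adjusted p = 3.01e-06). Both Kitl_OE and shKitl were under all controls at Dlk1, with Kitl_OE by far the lower. Among integrins and cadherins 10 of 27 were lower and 3 higher (median -0.55, with 4 lower and a median of 0.05 when the P number was a covariate, and a median of 0.19 with shKitl replicate 3 alone). Cdh6 (-4.91, SE 0.71), Itgb8 (-4.70, SE 0.44) and Itgb7 (-4.12, SE 0.45) were lower like Cdh11, and Itga4 had 46 counts in shKitl and none in Kitl_OE, at least 15.3-fold lower, taking 3 counts for the whole group as the floor. Itgb4, the hemidesmosome integrin chain, was higher (2.45, SE 0.40). Retinoid and lipid storage genes, the hallmark of resting stellate cells, had 6 of 21 lower and 2 higher (median -0.13). Crabp1, which binds retinoic acid in the cytoplasm, had 28.8, 286 and 133 CPM in shKitl and 1.32, 1.61 and 2.01 in Kitl_OE (-6.49, SE 1.06), and the retinoic acid receptor gene Rarb differed by -4.88 (SE 0.72). With the P number as a covariate 0 of the list were lower in edgeR's test, with 3 at an unadjusted p under 0.05, and the median was 0.59, against 0.28 with shKitl replicate 3 alone.

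Among markers of other cell types the mesothelial, Schwann and neural and pancreatic epithelial lists differed most in calls or summed level. Of 10 tested mesothelial markers 4 were higher in Kitl_OE and 2 lower (median 2.19). Kitl_OE lay above all controls at 7 of the 10, against 19.2% of all tested genes. The lower count was 0 without Kitl_OE replicate 1 or shKitl replicate 2, and 1 without Kitl_OE replicate 2 or 3 or shKitl replicate 3. The summed level of the list was 194.8, 242 and 119.1 CPM in shKitl, 89.6 to 108.5 in shCtrl, 22.1 to 51.1 in Egfp_OE and 604.7, 778.9 and 435.8 in Kitl_OE. Gpm6a, a membrane glycoprotein of mesothelium and neurons, had 18.4, 12.3 and 1.76 CPM in shKitl, 0.0336 to 1.84 in the controls and 125, 211 and 145 in Kitl_OE (log2 difference 3.89, SE 0.71, edgeR adjusted p = 0.00288). Upk3b, a uroplakin of mesothelium, had 39.7, 30.6 and 1.42 CPM in shKitl, 0.0788 to 1.97 in the controls and 149, 194 and 97.4 in Kitl_OE, and did not pass (2.62, SE 0.91, edgeR adjusted p = 0.0615), although it did without Egfp_OE replicate 2 or shCtrl replicate 2. At both genes shKitl replicates 1 and 2 lay over all controls and replicate 3 among them. The mesothelial antigen gene Msln was lower in Kitl_OE (-1.24, SE 0.33), but not without Kitl_OE replicate 1 or shKitl replicate 2 or 3, and Wt1, Krt8, Krt18, Calb2 and Lrrn4 were too low to be tested. In bulk RNA more cells of a type and more transcript per cell cannot be told apart, and the part of such cells in the other gene groups was not tested. Of 10 pericyte and smooth muscle markers 3 were lower and 1 higher, and the lower count was 1 without Kitl_OE replicate 1 or 2. Endothelial markers had 6 tested genes, of which 0 passed in edgeR's test, 1 had an unadjusted p under 0.05 and DESeq2 called 1. Blood markers had 1 of 4 (Hdc, lower), and the 2 that passed of 5 pancreatic epithelial markers were Spp1 and Sox9, both lower and both also made by mesenchyme. The summed level of the epithelial list was 661.5, 1089 and 929.4 CPM in shKitl, 795.4 to 2552 in the controls and 37.3, 69.0 and 53.7 in Kitl_OE, and Spp1 alone made up most of it. Of 8 Schwann and neural markers 3 were higher and 4 lower, with Sox10 at 0 or 1 count a group. The list's summed level was 97.1, 109.0 and 49.0 CPM in shKitl, 14.5 to 67.5 in the controls and 138.3, 136.6 and 120.5 in Kitl_OE. In Kitl_OE Mbp alone made up most of that sum, with 113, 103 and 94.4 CPM. The lower count was 1 without any 1 of the Kitl_OE replicates and 2 without shCtrl replicate 2 or shKitl replicate 1 or 2.

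In the proliferation and metabolism lists the shares that passed the test were closer to those over all genes, apart from cholesterol and fatty acid synthesis. That list had 25.8% lower, against 13.4% over all genes. Of 28 mitosis genes 3 passed, all lower (median -0.17). Ccna2 had 178, 150.3 and 313 CPM in shKitl, 150.2 to 354 in the controls and 71.9, 61.1 and 106 in Kitl_OE (log2 difference -1.42, SE 0.31, edgeR adjusted p = 0.00718), and Ccnb2 53.5, 55.6 and 76.0, 63.1 to 70.2 and 22.5, 21.2 and 27.1 CPM (-1.39, SE 0.17, edgeR adjusted p = 1.88e-04). These are the A and B type cyclins that drive entry into mitosis, and Ttk, a spindle checkpoint kinase, was the third, and it did not pass without Kitl_OE replicate 1 or 2. The mitosis count was 6 without Egfp_OE replicate 2, and the median was 0.06 without shKitl replicate 3. Of 30 replication genes 3 were higher (10%, against 7.31% over all genes) and 1 lower (3.33%, against 13.4%), with a median of -0.17. Kitl_OE lay below all 6 controls at 15 of the 30 and above them at 1. Over all tested genes it lay below at 18.1% and above at 19.2%. Cholesterol and fatty acid synthesis had 8 of 31 genes past the test, all lower (median -0.54). Pmvk, phosphomevalonate kinase, had 29.6, 27.5 and 37.2 CPM in shKitl and 7.28, 7.73 and 7.58 in Kitl_OE (-2.06, SE 0.28). That count was 16 without Egfp_OE replicate 2, 4 without Kitl_OE replicate 1 or 3, 5 without shKitl replicate 3 and 2 with spike-in scaling. With the P number as a covariate 0 passed in edgeR's test and 4 were lower at an unadjusted p under 0.05. Glycolysis and hypoxia genes had 2 of 28 higher and 3 lower. Ndrg1, a hypoxia-induced gene, had 75.0, 77.5 and 66.5 CPM in shKitl and 231, 257 and 146 in Kitl_OE (1.53, SE 0.28, edgeR adjusted p = 0.00285). The p53 targets (2 of 27 higher, 3 lower), ER stress genes (2 of 29 higher, 2 lower) and YAP-TEAD targets (2 of 14 higher, 1 lower) had few members past the test. Both counts of genes past the test in the glycolysis, replication, ER stress and YAP-TEAD lists and the higher count of the p53 list moved by more than 1.5 times without 1 or more of the Kitl_OE replicates. Some of these counts also moved without a library of another line. Without Egfp_OE replicate 2, for example, 8 p53 targets and 8 ER stress genes were higher. Against the 6 controls Kitl_OE lay above at 14 p53 targets, 6 ER stress genes and 7 YAP-TEAD targets, and below at 4, 3 and 0. Over all tested genes it lay above at 19.2% and below at 18.1%.

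The largest differences that met the naming rule were nearly all made by Kitl_OE. On the low side, besides genes already given, were Zic5, a zinc finger factor, with 562 counts in shKitl and 3 in Kitl_OE (ratio 187, exact 95% interval of counting error 63.7 to 911), the kinase gene Nrk (-7.23, SE 0.70), the adhesion receptor gene Adgrl3 (-7.13, SE 0.50), the glutamate receptor gene Gria4 (-7.41, SE 1.03) and Enpp2, the lysophosphatidic acid producing enzyme autotaxin (-7.14, SE 0.94). Adgrl3 had 5.40, 11.3 and 10.6 CPM in shKitl, 8.46 to 16.2 in the controls and 0.0389, 0.110 and 0.0341 in Kitl_OE. On the high side Kcnd2, a voltage-gated potassium channel gene, had 1.46, 0.949 and 0.299 CPM in shKitl, 0.0671 to 0.954 in the controls and 25.7, 22.6 and 20.8 in Kitl_OE (4.66, SE 0.52, edgeR adjusted p = 1.17e-04). Frem1 (6.16, SE 0.87), a basement membrane protein gene, Sh3bgr (5.12, SE 0.71), Kctd15 (4.10, SE 0.60), Tns4 (4.08, SE 0.80), Cbr2 (4.02, SE 0.62), Asb2 (3.99, SE 0.81) and Slc26a7 (3.94, SE 0.60) were near 0 to a few CPM elsewhere and up to 52.0 CPM in Kitl_OE. In all of these the Kitl_OE libraries were clear of the controls, and shKitl was inside them by the rule of all 3 libraries. Frem1, Gria4 and Enpp2 did not pass with the P number as a covariate.

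Both extremes lay on the same side of all controls more often than on opposite sides: 309 genes (2.02%) had both above and 231 (1.51%) both below, and 111 of these 540 passed the test between the extremes. Smpd3, a neutral sphingomyelinase, had 30.1, 27.4 and 19.9 CPM in shKitl, 13.6, 10.6 and 9.07 in shCtrl, 2.98, 1.60 and 1.85 in Egfp_OE and 91.6, 115 and 103 in Kitl_OE (log2 difference 2.00, SE 0.25, edgeR adjusted p = 2.36e-04). Myom2, a sarcomere protein gene, had 9.52, 10.1 and 1.53 CPM in shKitl, 0.168 to 1.44 in the controls and 61.4, 108 and 45.7 in Kitl_OE (3.34, SE 0.74, edgeR adjusted p = 0.00812). Uchl1, a ubiquitin hydrolase, had 10.3, 8.28 and 14.6 CPM in shKitl, 20.4 to 217 in the controls and 0.817, 1.58 and 2.15 in Kitl_OE (-2.86, SE 0.46, edgeR adjusted p = 0.00127). At such genes the line with more Kitl and the line with less differed from the controls in the same direction, and the contrast of the extremes understates how far Kitl_OE lay from its own control: the step from Egfp_OE to Kitl_OE was 5.58 for Smpd3, 6.85 for Myom2 and -6.39 for Uchl1. The imprinted genes Rian and Meg3 of the Dlk1 region also had both lines below all controls. Rian, a noncoding RNA, had 1.24, 1.46 and 0.635 CPM in shKitl, 3.22 to 19 in the controls and 0.0778, 0.0733 and 0.273 in Kitl_OE (-2.91, SE 0.61), and Meg3 did not pass (-2.17, SE 0.81, edgeR adjusted p = 0.0787). Of 26 imprinted genes in all 8 were lower and 3 higher (median -0.77), with 4 lower without Kitl_OE replicate 1 and 5 without Kitl_OE replicate 2. Leaving out a library loosened the rule: both above held at 1285 genes without shKitl replicate 3, 554 without shCtrl replicate 1 and 513 without Egfp_OE replicate 2, and both below at 711, 416 and 459 without the same libraries and 364 without shKitl replicate 2.

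Differences were not spread evenly over the chromosomes. The median over the tested genes of a chromosome was -0.46 on chromosome 3 (822 genes), -0.49 on chromosome 14 (486 genes) and -0.32 on chromosome 9 (855 genes), and 0.31 on chromosome 17 (710 genes) and 0.24 on chromosome 2 (1176 genes), against -0.02 over all. On chromosome 3, 232 genes were lower and 29 higher (31.8% of those tested), and on chromosome 14, 130 were lower and 10 higher (28.8%). Read in each library against the mean of the 6 controls, chromosome 3 had medians of -0.39, -0.40 and -0.40 in Kitl_OE and of -0.08, 0.08 and 0.02 in shKitl, with the controls between -0.13 and 0.03. Chromosome 14 had -0.36, -0.34 and -0.40 in Kitl_OE and -0.07, 0.17 and 0.15 in shKitl, with shCtrl between 0.0012 and 0.15 and Egfp_OE between -0.23 and -0.12. Over the fitted steps its median was -0.30 from shCtrl to Egfp_OE and -0.27 from Egfp_OE to Kitl_OE, so the difference there lay in similar parts between the control lines and between Kitl_OE and its own control. Chromosome 9 had -0.45, -0.43 and -0.44 in Kitl_OE and -0.22, -0.07 and -0.17 in shKitl. Chromosome 2 had 0.27, 0.25 and 0.25 in Kitl_OE and 0.13, 0.06 and -0.05 in shKitl. Chromosome 17 had 0.22, 0.23 and 0.21 in Kitl_OE and 0.04, 0.004 and -0.11 in shKitl. Over the fitted steps its median was 0.19 from shCtrl to Egfp_OE and 0.21 from Egfp_OE to Kitl_OE, so there too the control lines differed. The Kitl_OE libraries were nearly identical to each other on these chromosomes and outside the controls, and the shKitl libraries lay within or near them. The level in Kitl_OE thus differed between chromosomes, and the share of any gene group above that goes with its chromosome was not tested.

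**Figure D5:**
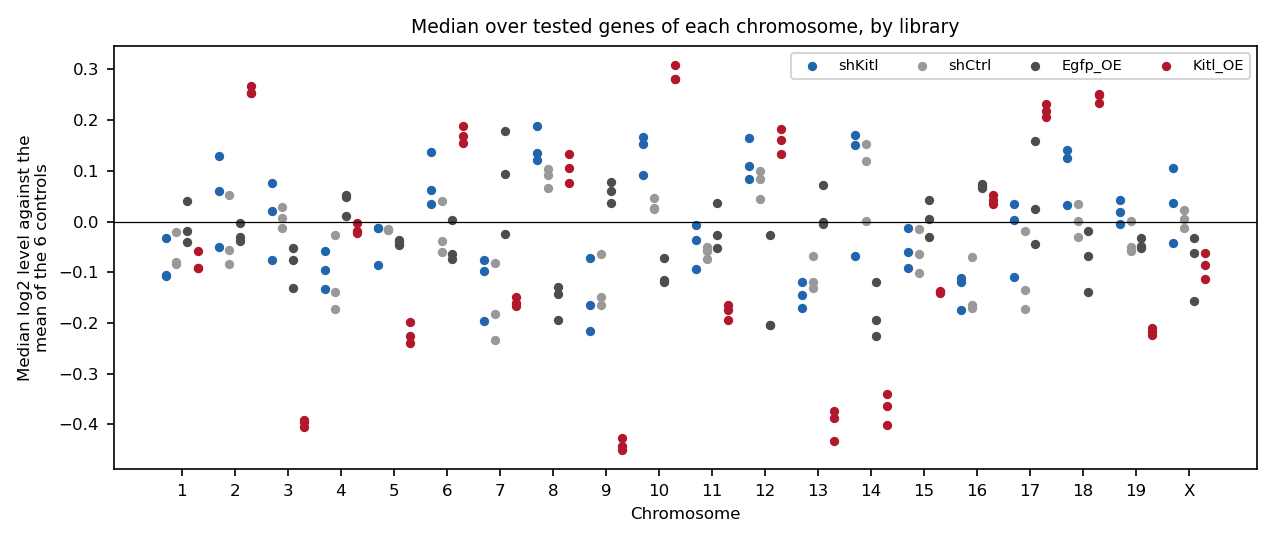
Median over the tested genes of each chromosome of the log2 level (CPM + 0.5) against the mean of the 6 controls, 1 point per library, coloured by group. The 3 Kitl_OE points lie close together and far from 0 on chromosomes 2, 3, 9, 10, 13, 14, 17 and 18, while the other 9 libraries stay nearer to 0.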

How the data were processed

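RNA of 12 libraries was compared, 3 in each of 4 lines. The deposited table holds raw counts per gene made by the authors, with STAR 2.5.2b, featureCounts of Subread 1.5.2, DESeq2 and the build GRCm38 named in the submitters' processing notes. Neither the strand setting nor the release of the annotation is stated by those sources, so reads of a gene and its antisense partner may not be told apart, and reads of near-identical families may be split. TPM values, also deposited by the authors, served for alternatives only.

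Spike-in rows were left out of tests and library sizes. Counts were filtered with filterByExpr, scaled with TMM and fitted in edgeR 4.0.16 (R 4.3.3) by the robust quasi-likelihood test over all 4 groups, with Benjamini-Hochberg adjustment over 15271 genes and a threshold of 0.05. The code was tested on simulated data. CPM values are counts scaled to the TMM library size. Steps between neighbouring lines came from the same fit. Depth ran from 24979742 to 33517686 counts in genes per library, and intervals and floors cover counting error only.

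Alternatives were DESeq2 1.42.0, limma 3.58.1 (voom, and log2 of TPM plus 1 or 0.1), other scalings and filters, a replicate block, the P number as a covariate, the 2 groups alone, leaving out each library, and, chosen after the data were seen, shKitl replicate 3 as the only knockdown library. The members and gene lists were chosen with earlier results of these data known. Named by rule were 10 stellate cell genes, the 10 highest and 10 lowest differences past the test, up to 12 genes on each opposite side of the controls, 6 genes on each common side, and up to 4 called members of each list with the largest change, with a mean of at least 5 CPM and no overlap of libraries outside the lists. Other genes with values were picked after their values were seen. Sequences came from RefSeq's promoter table (GRCm38.p6), matched by symbol for 10842 of the tested genes. Chromosome medians were taken over tested genes placed by GENCODE M21 (GRCm38), which matched 49326 of 49671 gene IDs. A gene withheld for evaluation is not reported here.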

Additional observations from a re-analysis of the deposited data

Results flagged for a closer look

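At 12 genes the step from Egfp_OE to Kitl_OE and the step from shKitl to shCtrl went opposite ways, and the difference between these steps passed a test of the interaction in edgeR over all genes. Each gene was picked because both Kitl_OE and shKitl lay on the same side of all 6 controls, so these sizes describe the choice and lend it no support. On the log2 scale the difference between the steps was 11.12 for Cpz, 9.86 for Myom2, 7.27 for Sh3tc1, 7.08 for Gjb5, 6.79 for Smpd3 and 5.87 for P2rx3, with both lines above the controls. It was -11.11 for Grid1, -10.03 for Nptx1, -9.08 for Meg3, -9.07 for Rian, -8.80 for Zdbf2 and -7.52 for Uchl1, with both lines below. The Kitl_OE counts of Grid1 (1) and Zdbf2 (3) were at or under the floor of 3 counts over the group, so their sizes depend on the prior count and are no bound. Cpz, Sh3tc1, Gjb5, P2rx3, Nptx1 and Meg3 did not pass between Kitl_OE and shKitl.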

How the results depend on the processing

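Against 3161 genes called, 685 were called with the P number as a covariate, 1686 with spike-in scaling (median of all genes -0.25, against -0.02; 14.5% of calls higher, against 35.3%), 1500 at an adjusted p under 0.01 and 1820 to 5360 without single libraries. DESeq2 called 4040 and limma on log2(TPM + 1) 2390. The Kitl difference of 2.18 was 1.97 with the P number as a covariate, 1.93 with spike-in scaling and 2.14 to 2.28 without single libraries.

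The 309 genes with both lines above the controls became 175 with spike-in scaling, 204 with TPM, 12 at 1.5-fold outside, 809 against shCtrl alone, 1207 against Egfp_OE alone, 467 with shKitl replicate 3 alone and 321 to 1285 without single libraries. In the same order of settings the 231 with both below became 60 (spike-in), 27 (1.5-fold), 718, 1152, 507 and 234 to 711. The 20 with Kitl_OE above and shKitl below became 2 (spike-in), 5 (TPM), 0 (1.5-fold), 170, 72, 269 and 21 to 75, and the 77 of the opposite class became 9 (1.5-fold), 41 (at least 5 CPM in 3 libraries), 294, 258, 322 and 80 to 186. The cause of these moves was not tested, except that fewer libraries make the rule looser.

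Less the median of all genes, the chromosome medians with the P number as a covariate were 0.44 for chromosome 2 (0.26 as reported), -0.55 for 3 (-0.44), -0.66 for 14 (-0.47) and 0.45 for 17 (0.33). With shKitl replicate 3 alone chromosome 2 had 0.35 and 17 had 0.42, and limma on log2(TPM + 1) gave -0.32 for 3. Without single libraries they ran from 0.21 to 0.32 on 2, -0.48 to -0.40 on 3, -0.30 to -0.28 on 9, -0.53 to -0.39 on 14 and 0.30 to 0.40 on 17.

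Signs turned for Pdgfrb without shKitl replicate 3 (-0.13 to 0.64 over single libraries left out), for Col1a2 with spike-in scaling (-0.038) and without shKitl replicate 1 or 3 (-0.079 to 0.76 over single libraries left out), and with the P number as a covariate for Pmaip1 (0.52). The medians of the matrix glycoprotein, matrix remodelling, TGF-beta, growth factor, retinoid, integrin, ERK and pericyte lists also turned sign with the P number as a covariate, and those of other lists with spike-in scaling or without single libraries.

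With the replicate number as a block 3294 genes were called, 1271 higher and 2023 lower. Same-numbered libraries correlated at 0.0879, 0.263 and 0.302 in their deviations, each above all other pairs, which ran from -0.266 to 0.0421. Whether the numbers pair the libraries was not settled, and the main fit held no replicate block. With 3 libraries a line, an exact permutation test of a single gene cannot go below 0.1.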
